A study of Mus musculus with 6 samples.

Results

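The genes described here are 40 listed mouse genes of interferon signalling and antiviral defence, and each was represented by the probe set that names no other gene and has the highest mean over the 6 arrays. Such a probe set existed for 38 of the 40, out of 19938 genes measured in all. Isg15 and Ifi44 had none, so their levels are not given. The cells were sorted from dissociated primary mouse bone marrow as negative for CD45, a leukocyte protein, and Ter119, a red cell precursor antigen, and as positive for CD73, a surface enzyme that makes adenosine. CD73+CD105+ cells (n = 3) carried the TGF-beta co-receptor endoglin (CD105) as well, and CD73+CD105- cells (n = 3) did not. All samples share the CD45, Ter119 and CD73 gates, and the labels name no treatment other than dissociation and sorting. The labels used here state no strain, age or sex of the mice. They call the samples biological replicates but do not tie them to animals. A p-value below therefore reflects the spread among these samples, which may in part be technical.

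Interferons are secreted proteins that warn cells of infection. Type I interferons bind the receptor chains encoded by Ifnar1 and Ifnar2, and interferon gamma binds those of Ifngr1 and Ifngr2. The JAK kinases on these receptors activate STAT factors, which act with interferon regulatory factors (IRFs) on promoter elements of antiviral genes. In bone marrow, interferons are known to act on blood stem cells as well as on stroma and endothelium.

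Values are the authors' RMA expression values on the log2 scale, and differences are CD73+CD105+ minus CD73+CD105-. Array medians lay between 6.27 and 6.35, and Eng, which encodes CD105, differed by 1.76 (SE 0.15, adjusted p = 0.00322 in limma, higher in 3 of 3 CD73+CD105+ arrays). Nt5e, which encodes CD73, differed by -0.26 (SE 0.09, adjusted p = 0.183 in limma). Its CD73+CD105+ arrays all lay below its CD73+CD105- arrays, as in 12.9% of all genes. Ptprc, which encodes CD45, differed by -0.01 (adjusted p = 0.96 in limma). The replicate 1 arrays stood apart in one respect. Averaged over both populations, replicate 1 gave nearly the same value for each gene as the remaining 4 arrays did, with an SD over genes of 0.0423, against 0.122 to 0.168 for the 8 other pairs of 1 array from each population. No label describes this relation. If replicate 1 had been equalised with the other replicates before deposit, which was not tested, p-values from a fit without a term for it would be too small. Results are therefore also given with a term for replicate 1 in the fit, and separately for replicate 1 and for replicates 2 and 3.

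Most measured members stood somewhat higher in CD73+CD105+ cells, and 3 antiviral effectors passed the test. These were Xaf1 at 1.6-fold, Parp14 at 1.53-fold and Ifitm3 at 1.51-fold. No receptor, kinase, signal protein or IRF factor passed. In limma, with Benjamini-Hochberg adjustment over all 19938 genes and a threshold of 0.05, 3 of the 38 members rose, 0 fell and 35 did not pass, where 1.82% of all genes passed in either direction and 1.35% rose. At an unadjusted p under 0.05 there were 12 members, all higher, against 17.7% of all genes, made up of 8.58% higher and 9.09% lower. The difference lay above 0 in 31 of 38 members, against 44.4% of all genes. The groups did not overlap for 14 members that were higher and 1 that was lower, where 10.7% and 12.9% of all genes were separated in these directions. The median difference of the 38 members was 0.18, beside -0.02 over all genes. With a term for replicate 1 in the fit, 0 of the 38 members passed and 0.507% of all genes did, and with a replicate block 0 members and 1.08% of all genes did. In replicates 2 and 3 alone 0 members passed as well.

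**Figure D1:**
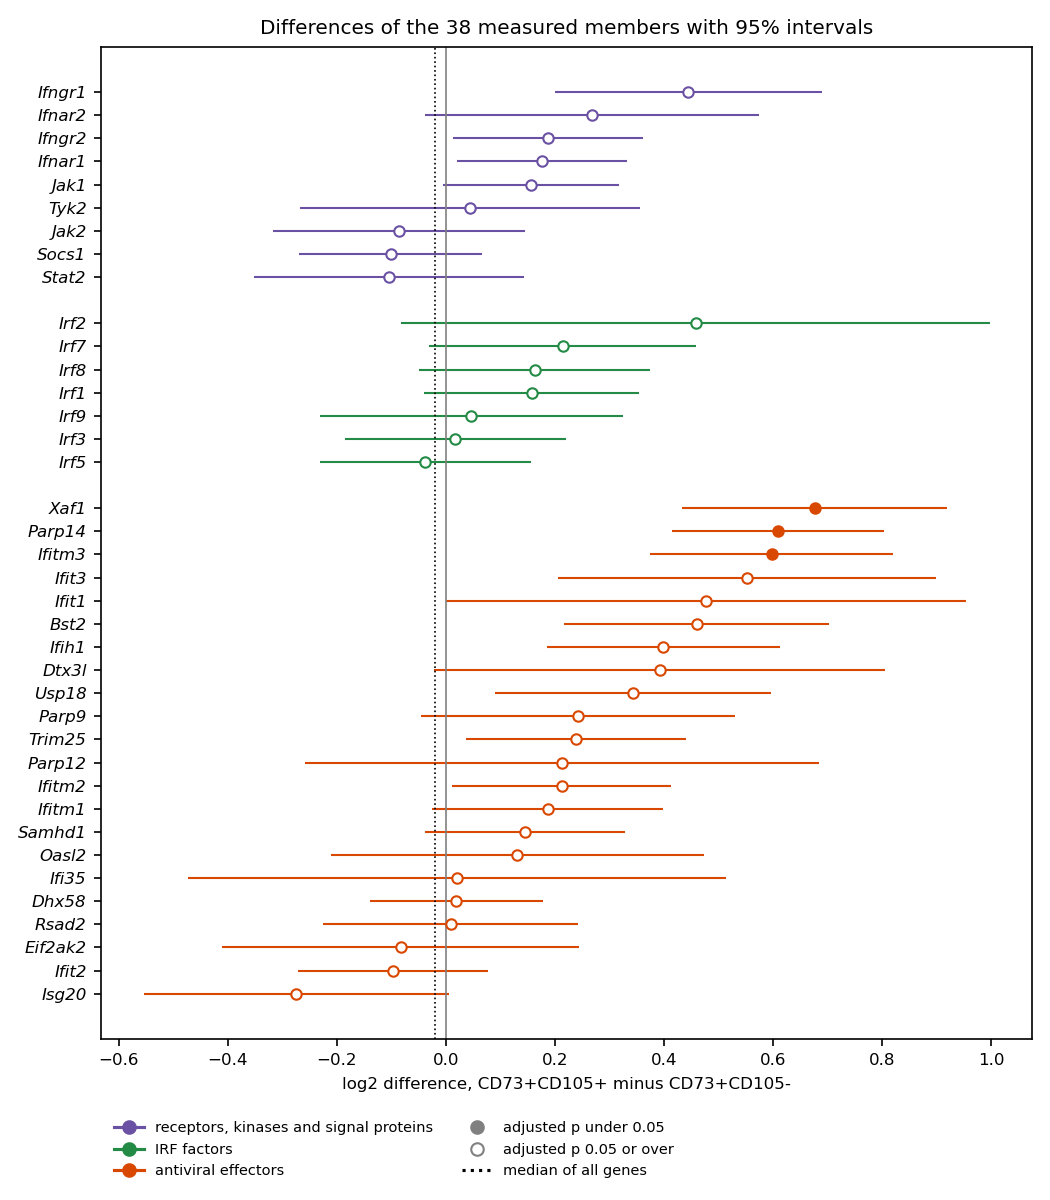
Log2 difference (CD73+CD105+ minus CD73+CD105-) of each of the 38 measured members with its 95% confidence interval from limma, grouped by role. Filled points passed at an adjusted p under 0.05. The 3 filled points are Xaf1, Parp14 and Ifitm3, and the lowest point is Isg20 at -0.27.

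The populations also differed in marker genes of other cell types. All 10 of 10 pan-endothelial markers rose, and their mean level was 8.17 to 8.49 in CD73+CD105+ arrays, against 5.67 to 5.98 in CD73+CD105- arrays. Of 6 reticular stroma markers 5 rose, with a mean level of 9.16 to 9.34 in CD73+CD105+ arrays and 8.08 to 8.39 in CD73+CD105- arrays. With the term for replicate 1, 8 endothelial and 1 reticular markers passed. Of 6 chondrocyte markers and 8 immediate early genes, which tissue dissociation can induce, 0 passed. At an unadjusted p under 0.05 in limma 4 and 3 were lower, beside 9.09% of all genes, with medians of -0.29 and -0.22. The part of these cell types in the interferon gene differences was not tested, and in bulk samples fewer cells of a type and less RNA per cell cannot be told apart. Of 11 leukocyte markers 0 passed, with 6 above 0, and their mean level was 5.24 to 5.29 in CD73+CD105+ arrays and 5.20 to 5.26 in CD73+CD105- arrays. Of these 11, 9 had a mean below 6.01. That level is the 95th percentile over 1190 genes for smell and pheromone receptors, taken here as a mark of dim signal. Plasmacytoid dendritic cell markers, listed because these cells make much type I interferon, also held 0 of 5 past the threshold (mean level 6.08 to 6.14 in CD73+CD105+ and 6.08 to 6.17 in CD73+CD105- arrays). The unadjusted limma p was under 0.05 for 0 plasmacytoid and 2 leukocyte markers, beside 17.7% of all genes. Both leukocyte markers had separated groups. Lyz2, the lysozyme gene of myeloid cells, was higher by 0.38 (SE 0.08, limma adjusted p = 0.0731), by 0.43 in replicate 1 and by 0.35 in replicates 2 and 3, and Cd79a, of the B cell receptor, by 0.21 (limma adjusted p = 0.251). Both means over all arrays, 5.83 for Lyz2 and 3.83 for Cd79a, lay below 6.01. The part of leukocytes in the member differences was not tested.

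Among the receptors, kinases and signal proteins, 0 of 9 passed in limma. The unadjusted limma p was under 0.05 for 3 of them, all higher, beside 17.7% of all genes. The median difference of these genes was 0.16. Ifngr1, the ligand-binding chain of the interferon gamma receptor, had 9.77, 9.57 and 9.62 in CD73+CD105+ replicates 1, 2 and 3, against 9.17, 9.06 and 9.39 in CD73+CD105- replicates. The lowest CD73+CD105+ array lay above the highest CD73+CD105- array. The difference of 0.44 (SE 0.10, 95% interval 0.20 to 0.69) did not pass in limma (adjusted p = 0.0896). It was 0.60 in replicate 1 and 0.37 in replicates 2 and 3.

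Its partner chain Ifngr2 stood at 8.89, 8.99 and 8.94 in CD73+CD105+ cells and 8.83, 8.66 and 8.76 in CD73+CD105- cells. These groups did not overlap either, but the gap was narrow and the difference of 0.19 (SE 0.07) did not pass in limma (adjusted p = 0.253). Ifnar2, a chain of the type I interferon receptor, had 9.87, 9.76 and 9.68 in CD73+CD105+ cells, against 9.36, 9.35 and 9.79 in CD73+CD105- cells. CD73+CD105- replicate 3 lay within the CD73+CD105+ range, and the difference was 0.27 (SE 0.13, limma adjusted p = 0.341). It was 0.41 without that array (limma adjusted p = 0.0795), 0.51 in replicate 1 and 0.15 in replicates 2 and 3. The other chain, Ifnar1, differed by 0.18 with separated groups (limma adjusted p = 0.233).

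All 4 receptor chains thus had a difference above 0, from 0.18 to 0.44. In the RefSeq gene table (GRCm38.p6) Ifnar2, Il10rb, Ifnar1 and Ifngr2 are consecutive protein-coding genes on chromosome 16. Il10rb encodes a chain shared by the receptors for interleukin 10 and lambda interferons and is not among the 40 genes. It averaged 7.81 ± 0.34 in CD73+CD105+ cells and 6.75 ± 0.35 in CD73+CD105- cells (SD, n = 3 each), and its difference of 1.06 (SE 0.22) did not pass in limma (adjusted p = 0.064, higher in 3 of 3 arrays).

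The kinases and downstream signal proteins lay closer to 0. Jak1, the kinase that serves both receptor types, differed by 0.16 with separated groups (limma adjusted p = 0.30, interval -0.01 to 0.32). Jak2, which works at the interferon gamma receptor, was at -0.09, and Tyk2, which works at the type I receptor, at 0.04. Stat2, the STAT of the type I interferon complex, was at -0.10 (interval -0.35 to 0.14). Socs1, a feedback inhibitor that interferons induce, was also at -0.10 (interval -0.27 to 0.07). In these last 4 genes the groups overlapped, and the adjusted p-values lay between 0.511 and 0.898 in limma.

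IRF factors showed no separated groups: in all 7 the arrays of the populations overlapped, 0 passed, and 0 had an unadjusted p under 0.05 in limma. Their median difference was 0.16, with 6 of 7 above 0. Without CD73+CD105+ replicate 2 the median was 0.09 with 4 of 7 above 0, and with array weights it was 0.08 with 5 of 7 above 0. Irf2, which can repress interferon-induced genes, had 8.75, 9.07 and 9.14 in CD73+CD105+ cells, against 8.66, 8.01 and 8.92 in CD73+CD105- cells. One array, CD73+CD105- replicate 2, was far lower than the other 5. The difference of 0.46 (SE 0.23) had a wide interval of -0.08 to 1.0 and did not pass in limma (adjusted p = 0.352). Without that array it was 0.20.

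Irf7, the factor that amplifies type I interferon production, had 6.34, 6.24 and 6.57 in CD73+CD105+ cells and 6.28, 6.09 and 6.14 in CD73+CD105- cells. Only CD73+CD105+ replicates 1 and 3 lay above all CD73+CD105- arrays. The Irf7 difference was 0.21 (SE 0.10, limma adjusted p = 0.341), and 0.12 without CD73+CD105+ replicate 3. Irf8, a factor best known from myeloid and dendritic cells, had 6.22, 6.35 and 6.05 in CD73+CD105+ cells and 6.06, 6.07 and 5.99 in CD73+CD105- cells. Replicate 3 of the CD73+CD105+ cells lay within the CD73+CD105- range, and the Irf8 difference was 0.16 (SE 0.09, limma adjusted p = 0.40). It was 0.09 without CD73+CD105+ replicate 2. Irf1, induced by interferon gamma, was at 0.16, and its second probe set at 0.14. Irf9, a DNA-binding factor that partners STAT2, was at 0.05, Irf3, which responds to nucleic acid sensing, at 0.02, and Irf5 at -0.04. Between replicate 1 and replicates 2 and 3, 3 of the 7 IRF genes kept the same sign.

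**Figure D2:**
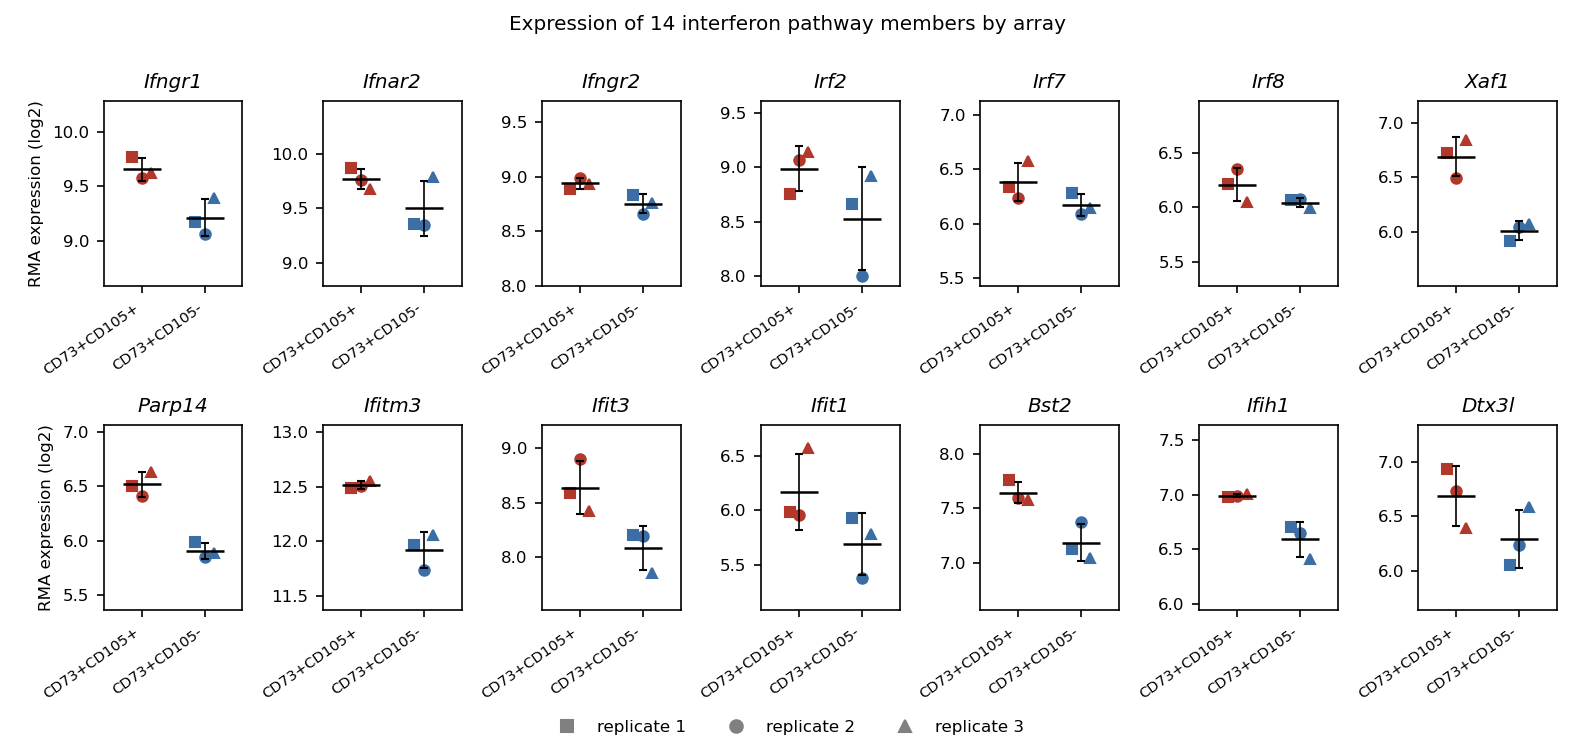
RMA expression (log2) of 14 members in each array, CD73+CD105+ left of CD73+CD105-. Marker shapes give the replicate number, horizontal lines the means and bars the SD (n = 3), and every panel spans the same height on the log2 scale. Xaf1, Parp14 and Ifitm3 show clear gaps between the populations, and Irf2 shows 1 low array, CD73+CD105- replicate 2.

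Of the 24 antiviral effectors 22 were measured, and 3 rose, 0 fell and 19 did not pass in limma. Their median difference was 0.23, with 19 of 22 above 0. The unadjusted limma p was under 0.05 for 9, all higher, beside 17.7% of all genes. Xaf1, an interferon-induced protein that opposes the apoptosis inhibitor XIAP, had 6.73, 6.50 and 6.85 in CD73+CD105+ cells, against 5.92, 6.05 and 6.07 in CD73+CD105- cells. The groups lay well apart, with the CD73+CD105- mean at the dim mark of 6.01. Xaf1 rose by 0.68 (SE 0.10, 95% interval 0.43 to 0.92, limma adjusted p = 0.0282), by 0.81 in replicate 1 and by 0.61 in replicates 2 and 3.

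Parp14, an ADP-ribosyltransferase, had 6.50, 6.41 and 6.63 in CD73+CD105+ cells and 5.99, 5.85 and 5.89 in CD73+CD105- cells. Again no array crossed into the other population's range. Parp14 rose by 0.61 (SE 0.08, interval 0.41 to 0.80, limma adjusted p = 0.0191), by 0.52 in replicate 1 and by 0.65 in replicates 2 and 3. Ifitm3, a membrane protein that blocks the entry of enveloped viruses, had 12.49, 12.51 and 12.56 in CD73+CD105+ cells, against 11.96, 11.73 and 12.06 in CD73+CD105- cells. The CD73+CD105+ arrays were nearly equal, and all lay above the CD73+CD105- arrays. Ifitm3 rose by 0.60 (SE 0.09, interval 0.38 to 0.82, limma adjusted p = 0.0309), by 0.52 in replicate 1 and by 0.63 in replicates 2 and 3.

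These 3 calls were lost in most fits with fewer arrays or an added term. An added term cannot change a difference in this balanced design, and with fewer arrays the differences stayed close to their size. With the term for replicate 1 the limma adjusted p was 0.0853 for Xaf1, 0.0704 for Parp14 and 0.0963 for Ifitm3. With 1 array left out, Xaf1 and Parp14 passed only without CD73+CD105+ replicate 2 (adjusted p = 0.0188 and 0.0264) and Ifitm3 only without CD73+CD105- replicate 3 (0.0381). In the 5 other fits the limma adjusted p was 0.0552 to 0.115 for Xaf1, 0.0505 to 0.0865 for Parp14 and 0.0604 to 0.115 for Ifitm3. Over all 6 of these fits the differences were 0.60 to 0.77 for Xaf1, 0.55 to 0.66 for Parp14 and 0.51 to 0.67 for Ifitm3.

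Parp14, Dtx3l and Parp9 are consecutive protein-coding genes in the RefSeq table, and DTX3L and PARP9 are known to form a complex that adds ubiquitin. Dtx3l had 6.93, 6.73 and 6.39 in CD73+CD105+ cells, against 6.05, 6.23 and 6.59 in CD73+CD105- cells. CD73+CD105- replicate 3 lay above CD73+CD105+ replicate 3, and the difference of 0.39 (SE 0.18) did not pass in limma (adjusted p = 0.307). It was 0.88 in replicate 1 and 0.15 in replicates 2 and 3. Parp9 differed by 0.24 (limma adjusted p = 0.355). The related enzyme gene Parp12 was at 0.21 over all arrays, 0.74 in replicate 1 and -0.05 in replicates 2 and 3.

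The IFITM family was followed by several probe sets. Ifitm2 had 3, with differences of 0.23, 0.23 and 0.21, none past the threshold over the 21789 probe sets with 1 gene symbol. Ifitm1 had 2. The brighter differed by 0.19 and did not pass (limma adjusted p = 0.336), and the other differed by 0.46 with separated groups and passed over those probe sets (limma adjusted p = 0.0269). Ifitm2, Ifitm1 and Ifitm3 are consecutive genes with similar sequences, and cross-hybridisation of their probes was not tested.

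Some proteins of the IFIT family bind foreign RNA, and the differences of the IFIT genes were unlike. Ifit3 had 8.59, 8.90 and 8.43 in CD73+CD105+ cells, against 8.21, 8.20 and 7.86 in CD73+CD105- cells. The groups were separated, with a difference of 0.55 (SE 0.15, interval 0.21 to 0.90) that did not pass in limma (adjusted p = 0.117). Ifit1 had 5.98, 5.96 and 6.58 in CD73+CD105+ cells, against 5.93, 5.38 and 5.78 in CD73+CD105- cells. The groups did not overlap, but only CD73+CD105+ replicate 3 stood clearly above the rest, and the difference was 0.48 (SE 0.20, limma adjusted p = 0.283). Without that array it was 0.28. It was 0.06 in replicate 1 and 0.69 in replicates 2 and 3. Ifit2 was at -0.10 (interval -0.27 to 0.08).

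Bst2, or tetherin, which holds budding virus at the cell surface, had 7.76, 7.60 and 7.58 in CD73+CD105+ cells and 7.13, 7.37 and 7.05 in CD73+CD105- cells. The groups did not overlap. The difference of 0.46 (SE 0.10, interval 0.22 to 0.70) did not pass in limma (adjusted p = 0.0813). Ifih1, the RNA sensor MDA5, had 6.98, 6.98 and 7.0 in CD73+CD105+ cells, against 6.71, 6.65 and 6.41 in CD73+CD105- cells. CD73+CD105+ arrays were nearly equal and above all CD73+CD105- arrays, with a difference of 0.40 (SE 0.09, limma adjusted p = 0.0832). Usp18, the protease that removes ISG15 from proteins, differed by 0.34 with separated groups (limma adjusted p = 0.165), but by 0.01 in replicate 1 and 0.51 in replicates 2 and 3.

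The other measured effectors lay between -0.27 and 0.24. Trim25, a ubiquitin ligase of RNA sensing, was at 0.24, Samhd1, an enzyme that breaks down deoxynucleotides, at 0.15, and Oasl2, of the oligoadenylate synthetase family, at 0.13. Dhx58, the RNA helicase LGP2, was at 0.02 and Rsad2, or viperin, at 0.01, both with means below 6.01 in either population. The mean of Tyk2 was also below 6.01 in both, and differences of such dim genes may be understated by RMA. Ifi35 was at 0.02 with 0.70 in replicate 1 and -0.32 in replicates 2 and 3. Eif2ak2, the RNA-activated kinase PKR, was at -0.08. Isg20, an exonuclease, was the lowest member: it had 8.31, 8.54 and 8.07 in CD73+CD105+ cells, against 8.58, 8.61 and 8.56 in CD73+CD105- cells. It was the only measured member with all CD73+CD105+ arrays below all CD73+CD105- arrays, and its difference of -0.27 (SE 0.12) did not pass in limma (adjusted p = 0.291).

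**Figure D3:**
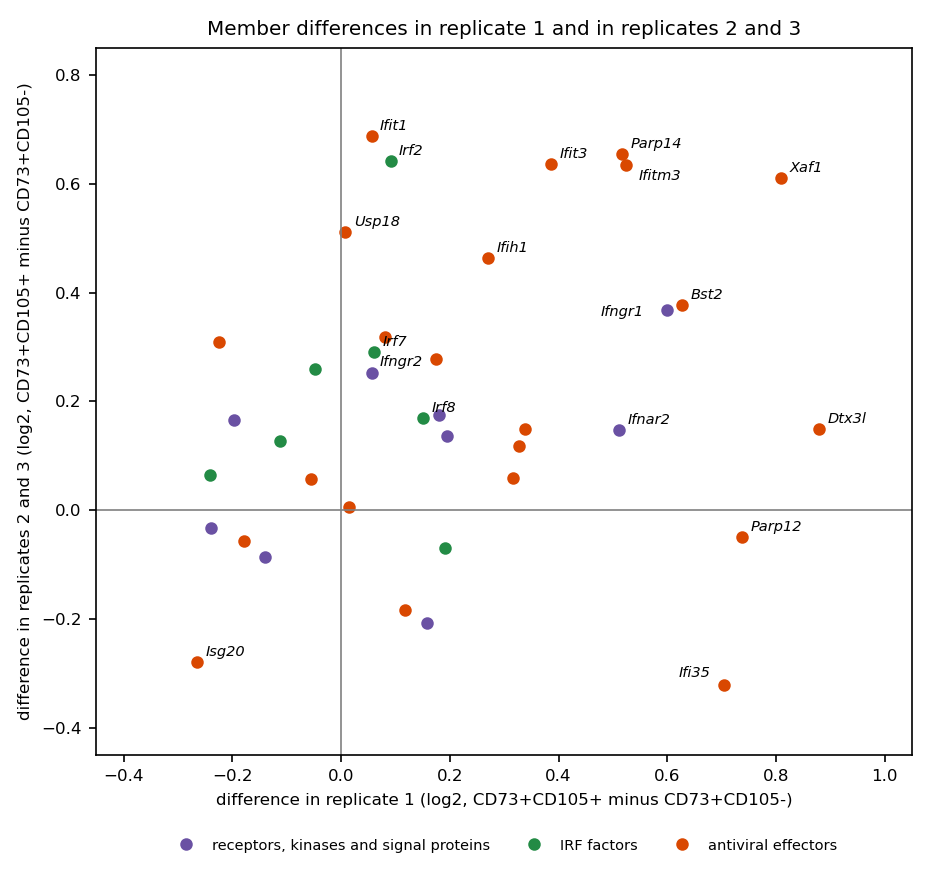
Each point is 1 of the 38 measured members, with its log2 difference in replicate 1 (1 array against 1, horizontal axis) and in replicates 2 and 3 (2 arrays against 2, vertical axis), CD73+CD105+ minus CD73+CD105-. Xaf1, Parp14 and Ifitm3 lie at the upper right, and Ifi35 has 0.70 in replicate 1 and -0.32 in replicates 2 and 3.

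Between the replicate subsets, 23 of 38 members were above 0 in both, beside 24.0% of all genes. Below 0 in both were 4 members, beside 6418 of all 19938 genes. Thus 71.1% of members kept their sign, beside 56.2% of all genes. The median member difference was 0.15 in replicate 1 and 0.16 in replicates 2 and 3. The same medians over all genes were -0.05 in replicate 1 and close to 0 in replicates 2 and 3. For the receptors, kinases and signal proteins these medians were 0.16 in replicate 1 and 0.15 in replicates 2 and 3, for the IRF factors 0.06 and 0.17, and for the effectors 0.29 and 0.21.

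The promoters of the members were searched for the interferon-stimulated response element, to which STAT and IRF complexes bind, written here as GAAA, any 2 bases, then GAAA again, and read on both strands. The RefSeq promoter table (GRCm38.p6) spans 250 bases before to 50 after each start and holds 36 of the 40 genes. Usp18, Dhx58, Parp9 and Parp14 are not in it. The motif stood in 12 of these 36 genes, against 3.99% of all 27025 genes in the table. Members that were higher and members that were not both held it, as the stretches below show, with the motif in capitals. Overlapping copies form 1 run of capitals.
Ifit1, chr19:34640770-34640828, plus strand: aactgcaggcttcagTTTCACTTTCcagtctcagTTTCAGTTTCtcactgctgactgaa
Ifit3, chr19:34583358-34583431, plus strand: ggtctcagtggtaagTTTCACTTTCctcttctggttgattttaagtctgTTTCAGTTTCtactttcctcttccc
Bst2, chr8:71537572-71537617, minus strand: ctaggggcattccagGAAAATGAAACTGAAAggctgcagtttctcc
Ifitm3, chr7:141010716-141010742, minus strand: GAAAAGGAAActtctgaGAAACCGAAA
Stat2, chr10:128270261-128270300, plus strand: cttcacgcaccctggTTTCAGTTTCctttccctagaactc
Socs1, chr16:10785589-10785634, minus strand: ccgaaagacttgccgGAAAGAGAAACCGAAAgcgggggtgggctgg
Rsad2, chr12:26456548-26456587, minus strand: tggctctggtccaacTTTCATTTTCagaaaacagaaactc

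Ifit1, Ifit3, Bst2 and Ifitm3 each carried 2 copies and had differences of 0.48, 0.55, 0.46 and 0.60. Socs1 also carried 2 copies, overlapping as in Bst2, and was at -0.10. Stat2 and Rsad2 carried 1 copy each and were at -0.10 and 0.01. In Ifitm3 the copies lie just past the RefSeq start, and in the other 6 genes before it. Of the 11 measured members with the motif, 8 had a difference above 0 and 1 passed, with a median of 0.40. Of the 23 measured members in the table without it, 19 were above 0 and 1, Xaf1, passed, with a median of 0.16. A match of letters is a description of the window and not a bound site.

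The rest of the pathway was followed through 76 genes that are not members, of which 69 were measured. This list, like the members, was chosen with earlier results of these data known. In limma 9 of the 69 rose and 0 fell, beside 1.35% and 0.466% of all genes, and the median difference was 0.14. None of the 6 ligands and further receptors passed (the unadjusted limma p of 1 was under 0.05, beside 17.7% of all genes). The ligand genes Ifnb1, Ifng, Ifnk and Ifne all had group means below 6.01, and Ifnlr1, the lambda interferon receptor chain, was at -0.15. None of the 7 measured STAT, IRF and regulator genes passed (the unadjusted limma p of 1 was under 0.05, beside 17.7% of all genes). There the largest differences were those of the feedback inhibitor Socs3 at -0.31 and the phosphatase gene Ptpn6 at -0.16.

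Of 13 nucleic acid sensors and adaptors 1 rose. This was Ikbke, a kinase that activates IRF3 and IRF7, which had 6.66, 6.79 and 6.62 in CD73+CD105+ cells and 6.09, 6.01 and 6.29 in CD73+CD105- cells. No array crossed between the groups, and the rise was 0.56 (SE 0.09, limma adjusted p = 0.036). The median of the class was 0.28. The unadjusted p in limma was under 0.05 for 8 of its 13 genes, all higher, beside 17.7% of all genes. Of the 13, 3 had a mean below 6.01, and 0 passed with the term for replicate 1 or with the replicate block.

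Of 43 measured further effectors 8 rose, 7 of them by more than Xaf1, the member that rose most. Ifi203, of a family of DNA-binding interferon-induced proteins, rose 4.56-fold, with 8.02, 7.71 and 8.50 in CD73+CD105+ cells, against 5.90, 5.49 and 6.27 in CD73+CD105- cells (limma adjusted p = 0.0101). Sp100, a nuclear body protein, rose 4.23-fold, with 7.28, 7.28 and 7.34 in CD73+CD105+ cells, against 5.34, 4.97 and 5.35 in CD73+CD105- cells (limma adjusted p = 0.000356). Slfn5, a Schlafen family gene, rose 3.61-fold, with 8.26, 7.93 and 7.75 in CD73+CD105+ cells, against 5.79, 6.11 and 6.50 in CD73+CD105- cells (limma adjusted p = 0.00808). In these 3 genes the populations lay more than 1 log2 unit apart.

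Trim30a, of a mouse TRIM family that restrains innate signalling, rose 2.44-fold. Ly6e, a lipid-anchored surface protein that restricts virus entry, rose 2.23-fold, Rtp4 2.16-fold, Nmi, a protein that binds STATs, 1.66-fold and Lgals9, or galectin-9, 1.56-fold. Their limma adjusted p-values lay between 0.0142 and 0.0338, and all 3 CD73+CD105+ arrays were above the CD73+CD105- arrays in each. With the term for replicate 1, 4 of the 9 passed: Sp100 (limma adjusted p = 0.00146), Slfn5 (0.0232), Ifi203 (0.03) and Trim30a (0.0366). In replicates 2 and 3 alone Sp100 passed (0.0229). Sp100, Ifi203 and Slfn5 passed in all 6 fits with 1 array left out. Leaving out 1 array moved the count of the 69 genes that passed to 3 where the array was CD73+CD105+ replicate 1 or replicate 3, and to 5 where it was CD73+CD105- replicate 1 or replicate 2. The mouse Ifi200, Trim30, Schlafen and Sp100 families hold close copies, and shared hybridisation was not tested.

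**Figure D4:**
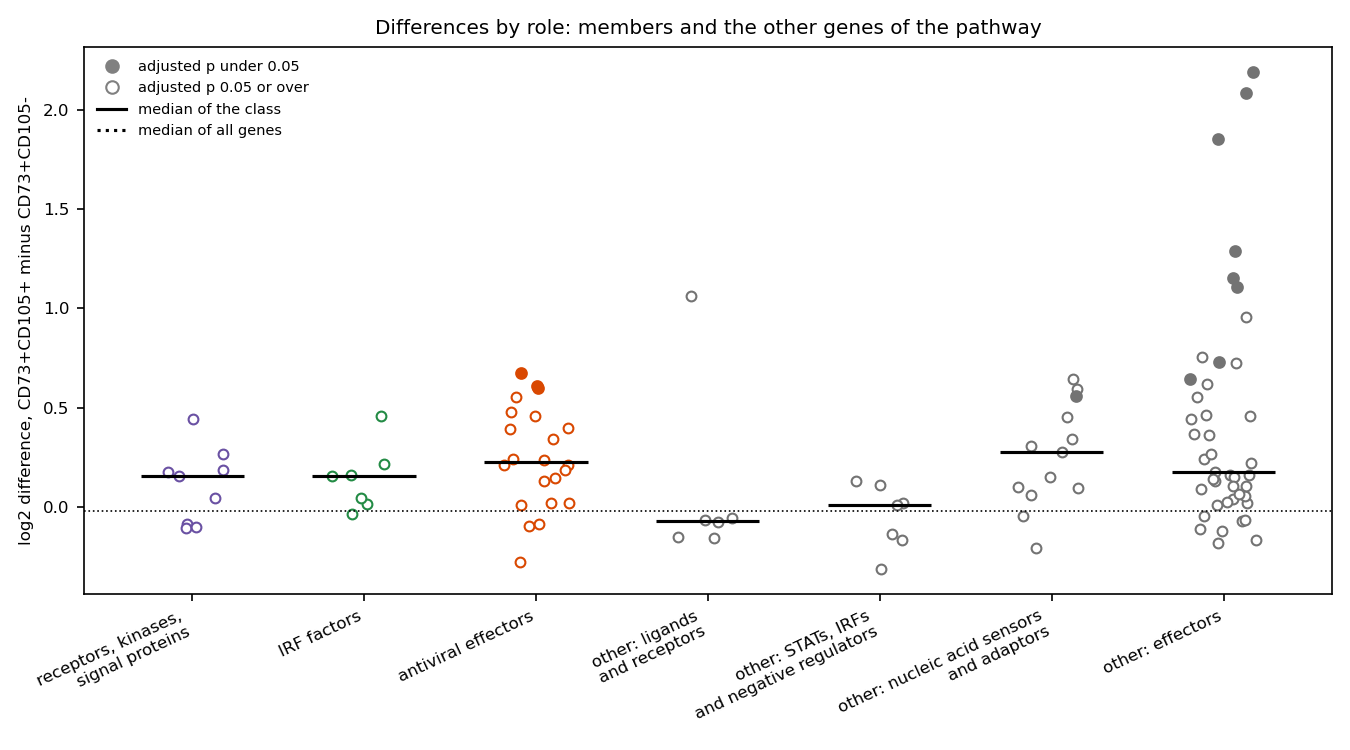
Log2 difference (CD73+CD105+ minus CD73+CD105-) of each measured gene by role, for the 38 members (coloured) and the 69 other pathway genes (grey). Filled points passed at an adjusted p under 0.05, solid lines are class medians, the dotted line is the median of all genes (-0.02), and points are spread sideways for legibility. The highest points are Ifi203, Sp100 and Slfn5 among the other effectors.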

How the data were processed

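The deposited table holds 1 log2 expression value per probe set and array, made by the authors with RMA per the submitters' processing notes. No RMA software version, probe annotation or genome build was found in the labels, and no detection calls were used. Groups and replicate numbers came from the sample titles. The platform annotation pairs 21789 of the 35556 probe sets with a single symbol and 1621 with several, and leaves 12146 unnamed here. For each gene the probe set with 1 symbol and the highest mean was taken (999 genes had several), which gave 19938 genes. Listed symbols were matched directly or through RefSeq synonyms and Entrez IDs. CD73+CD105+ was compared with CD73+CD105- in R 4.3.3 with limma 3.58.1 (two-sided, lmFit followed by eBayes), adjusted by Benjamini-Hochberg over all genes with a threshold of 0.05. Standard errors and 95% intervals are the moderated ones. The fit was tested on simulated data. No filter on dim genes was used, and with 3 arrays a group a difference had a median standard error of 0.0928.

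Per-array values are given for members past the threshold and for the largest absolute differences in each role, 3 for receptors, kinases and signal proteins, 3 for IRF factors and 8 for effectors. Isg20 was added after its values were seen. Of the other pathway genes, those past the threshold are named, and otherwise the 2 largest differences of a class. The members and all lists were chosen with earlier results of these data known. Lists are described by counts and medians, without set tests. Alternatives covered the replicate number as a block, a term for replicate 1, subsets of arrays, scaling, a filter on dim genes, probe set choice, array weights and the prior.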

Additional observations from a re-analysis of the deposited data

How the results depend on the processing

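Some of the 15 alternatives, namely the replicate block, the term for replicate 1 and the prior, cannot change a difference in this balanced design. The median differences of the 3 roles and of the other pathway genes moved by less than the spread between replicates under all 15 alternatives. That spread, an SD of per-array list medians within a group, was 0.07 for receptors, kinases and signal proteins and 0.17 for IRF factors. It was 0.16 for effectors and 0.07 for the other pathway genes. For IRF factors the spread exceeds the median difference of 0.16, so a fall to 0 would not have counted as a move. The median differences stayed at 0.13 to 0.17 for receptors, kinases and signal proteins, 0.08 to 0.17 for IRF factors, 0.19 to 0.27 for effectors and 0.11 to 0.16 for the other pathway genes. Counts of calls moved more. Over all genes 363 passed, against 215 with the replicate block, 101 with the term for replicate 1, 29 in replicates 2 and 3 alone and 1331 with array weights, and 86 to 293 with 1 array left out. Of the 38 members 3 passed, against 0 with the replicate block, 0 with the term for replicate 1, 0 in replicates 2 and 3 alone, 6 with array weights, and 0 to 2 with 1 array left out. Of the other pathway genes 9 passed, against 6 with the replicate block, 4 with the term for replicate 1, 1 in replicates 2 and 3 alone, 20 with array weights, and 3 to 9 with 1 array left out. Apart from array weights, these fits have fewer samples or fewer residual degrees of freedom. The reason why the counts moved was not tested in any of them. The 3 further members called with array weights were Ifngr1, Bst2 and Ifih1 (adjusted p = 0.0242, 0.0263 and 0.0439). Among the 14 members with per-array values by the stated rule, none changed direction under any alternative that can change a difference. They were picked for large differences in these same arrays, which favours a stable sign. Members outside the pick did change sign, such as Parp12, at 0.21 over all arrays and -0.05 in replicates 2 and 3. Ifit1 had no value over genes above the receptor gene percentile, since its mean lies below it. The replicate numbers are not known to pair samples. The deviations from the group means of the same-numbered arrays had a correlation across genes of -0.88, 0.00659 and 0.10 for replicates 1, 2 and 3. The value for replicate 1 follows from the near equality of its mean with that of the other arrays. It therefore cannot speak to pairing. With the replicate block the adjusted p was 0.056 for Xaf1, 0.0552 for Parp14 and 0.0643 for Ifitm3.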
